A study of Mus musculus with 7 samples.

Results

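The genes described here are 10 core components of the basal lamina, the thin sheet of matrix that underlies epithelia and encloses the granulosa cells of a growing follicle. They are the laminin chains Lama1, Lama4, Lama5, Lamb1, Lamb2 and Lamc1, the nidogens Nid1 and Nid2, and the heparan sulfate proteoglycans perlecan (Hspg2) and agrin (Agrn). They were taken by symbol from a deposited table of 50095 genes, and each symbol matched 1 row. All 10 passed the filter on low values, a mean of 1 FPKM or more across the libraries, as did 13850 genes in all, which were tested. FPKM is the number of sequenced fragments scaled to transcript length and to the size of the library, so levels can be set side by side between genes of different length.

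A laminin molecule is a cross of 3 chains, 1 alpha, 1 beta and 1 gamma, which join inside the cell before secretion and then polymerise into a sheet outside it. The alpha chain carries the globular domains that bind integrins and dystroglycan on the cell surface, and most laminins of non-skin tissues share the gamma chain encoded by Lamc1. Nidogens link the laminin sheet to the network of type IV collagen, and perlecan and agrin add heparan sulfate chains that hold growth factors and water. In the ovary, the follicular basal lamina separates granulosa cells from the vascularised theca until ovulation, and in cattle granulosa cells of large follicles also lay down patches of basal lamina material between the cells.

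The libraries came from primary granulosa cells of 3-week-old female mice primed with 5 IU of PMSG, which makes follicles grow, and given 5 IU of hCG, the ovulatory stimulus, after 48 h. The 4 WT libraries carried Ezh2flox/+; Cyp19-Cre and the 3 KO libraries Ezh2flox/flox; Cyp19-Cre, so both groups carried Cre under the aromatase promoter and the WT group 1 floxed allele. Ezh2 encodes the enzyme of Polycomb repressive complex 2 that methylates histones, and the comparison asks how granulosa cell transcripts differ after its deletion. The time from hCG to collection, the pooling of animals and the independence of the libraries are not given in the labels, so the p-values measure only the spread between these samples, which may be technical. WT4 carried the treatment label of the KO group beside a WT title and genotype. It was kept in WT, and counts of calls and the log2 differences of most named genes were also computed without it.

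The targeted gene Ezh2 measured 20.5, 23.4, 25.2 and 25.3 FPKM in the WT libraries and 20.03, 17.8 and 26.15 FPKM in those labelled KO. The highest value was that of KO3, and the groups did not differ beyond their spread (log2 difference -0.15, SE 0.14, limma adjusted p = 0.432). A gene-level value also counts exons that Cre leaves in place, and every direction given follows the labels. Il1r2, named in the title of the series, was low in both groups, at 1.86 ± 0.652 and 2.01 ± 0.452 FPKM (limma adjusted p = 0.752). Depth is unknown, since fragment numbers could not be recovered from the FPKM values. The sum of FPKM was 372085 to 390185 in WT and 400522 to 450102 with KO labels (exact permutation over 35 splits, two-sided p = 0.0286, the smallest they allow). Of the 13850 genes, 3410 (24.6%) were called at a limma adjusted p under 0.05. Of these, 1095 (7.91% of the tested genes) were higher with the KO label and 2315 (16.7%) were lower, and the median log2 difference over all tested genes was -0.08. The balance of these calls moved with the scaling: 32.1% of them were higher as reported, 48.8% after median-of-ratios scaling, 51.5% after upper-quartile scaling, 52.8% after centring by transcript length and 17.7% with an equal sum of FPKM. Equal sums moved the median of all genes from -0.08 to -0.21, and a call that depends on a scaling is named beside its gene.

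Promoter windows from RefSeq (GRCm38.p6), each running from 250 bases before to 50 bases after a start, were found for 6 of the 10 genes, Lama5, Lamb1, Lamb2, Nid1, Hspg2 and Agrn, the last with 2 windows. Polycomb repressive complex 2 is known in mammals for occupying promoters rich in CG dinucleotides, and the content of CG in these windows ranged widely. The window of Lamb2 held 4, that of Lamb1 18, those of Nid1 and Lama5 20 and 24, that of Hspg2 27, and those of Agrn 42 and 11, against a median of 7 over 32851 windows. At least as many CG dinucleotides as in the Lamb1 window occurred in 29.7% of all windows, as in the Hspg2 window in 15.5% and as in the Lamb2 window in 68.6%. A GC box (GGGCGG, either strand, which itself holds a CG) occurred in 6 of the 7 windows, the exception being Lamb2, and in 35.7% of all windows. TATAAA on either strand occurred in none of the 7 and in 13.6% of all windows. The stretches before the first annotated base of both beta chain genes, which had the highest levels of the 10 and differ in CG content, and of Hspg2, whose groups did not overlap, are shown 5′ to 3′ on the strand of the gene, with each CG in capitals. They lie at chr12:31265043-31265233 (plus strand, Lamb1), chr9:108479612-108479735 (plus strand, Lamb2) and chr4:137468553-137468768 (plus strand, Hspg2).
Lamb1: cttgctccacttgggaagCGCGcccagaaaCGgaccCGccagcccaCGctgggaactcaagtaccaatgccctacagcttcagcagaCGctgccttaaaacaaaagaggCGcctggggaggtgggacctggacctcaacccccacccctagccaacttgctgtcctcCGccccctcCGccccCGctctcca
Lamb2: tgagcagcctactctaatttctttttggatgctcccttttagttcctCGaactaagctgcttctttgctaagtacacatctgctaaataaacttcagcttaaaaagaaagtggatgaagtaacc
Hspg2: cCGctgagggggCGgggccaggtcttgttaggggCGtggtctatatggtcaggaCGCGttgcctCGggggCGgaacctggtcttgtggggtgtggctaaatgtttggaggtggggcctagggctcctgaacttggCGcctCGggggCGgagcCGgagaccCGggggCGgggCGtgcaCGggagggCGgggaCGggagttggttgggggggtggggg
No chromatin mark was measured in these libraries, so the sequences are a description only.

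Of the 10 genes, only Lama1 was called. It was lower in KO-labelled libraries, and none was higher, beside 16.7% lower and 7.91% higher among all tested genes. Among the 2894 tested genes with transcripts at least as long as the shortest of the 10, 27.8% were lower and 3.21% higher, and 1 lower call in 10 does not exceed either background. At an unadjusted p under 0.05, 2 of the 10 passed, Lama1 and Hspg2, beside 40.01% of all tested genes and 48.2% of the long genes. The median log2 difference of the 10 was -0.15, beside -0.22 for the long genes.

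**Figure D1:**
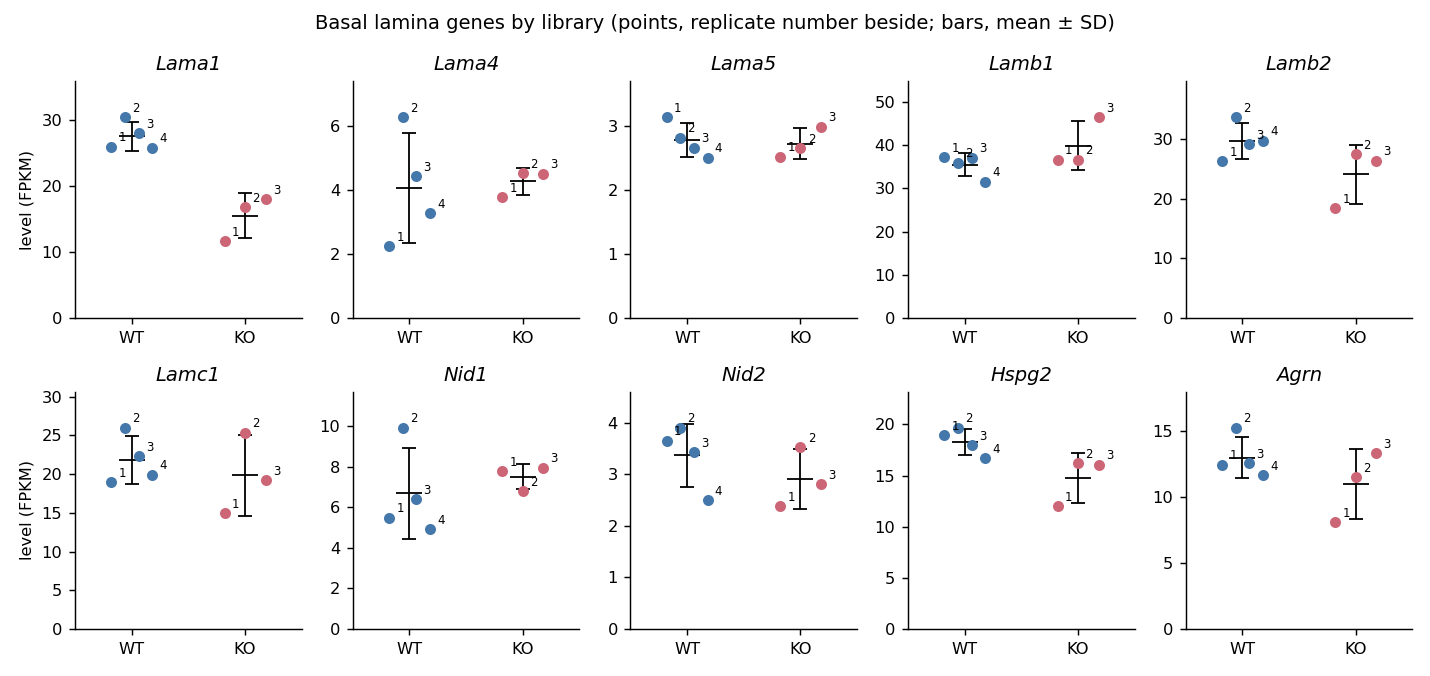
FPKM of each of the 10 genes (vertical axes from 0) in the 4 WT libraries (blue) and the 3 KO-labelled libraries (red), with the replicate number beside each point and bars for mean ± SD. Lama1 in KO-labelled libraries lay at 11.6 to 18.1 FPKM and in WT at 25.8 to 30.5 FPKM, while 8 of the other 9 genes had overlapping groups, the exception being Hspg2. Among all tested genes, the KO-labelled libraries lay wholly below WT for 24.8% and wholly above for 11.5%.

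Lama1 (ENSMUSG00000032796, GRCm38 chromosome 17, 67697259 to 67822647, plus strand) encodes the alpha1 chain of laminin-111, the classical embryonic laminin. Its levels were 25.99, 30.5, 28.1 and 25.8 FPKM in WT1 to WT4, in that order, and 11.6, 16.9 and 18.1 FPKM in KO1 to KO3. Every KO-labelled library lay below every WT library, a separation shared by 24.8% of all tested genes. The mean fell from 27.6 ± 2.17 FPKM (SD, n = 4) to 15.5 ± 3.41 FPKM (SD, n = 3), which is -0.81 on the log2 scale (SE 0.15, 95% interval from -1.14 to -0.48) with a limma adjusted p of 0.00823. It stayed called lower under all 15 alternatives run, with log2 differences between -0.95 and -0.55 and adjusted p between 0.00587 and 0.0348. Relative to the median of all genes under the same setting, the difference was -0.73 as reported and -0.74 with an equal sum of FPKM. Among tested genes, 293 (2.12%) had a more negative difference than Lama1, as did 81 (2.80%) of the long genes.

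The alpha chains Lama4, Lama5 and Lama2 were expressed at a much lower level than Lama1 and were not called. Lama4 (ENSMUSG00000019846, chromosome 10, 38965515 to 39110188, plus strand), the alpha chain of the laminins typical of vessel walls, stood at 2.25, 6.28, 4.44 and 3.29 FPKM in WT and at 3.79, 4.53 and 4.52 FPKM in KO-labelled libraries. The WT libraries spanned the KO-labelled ones, and the log2 difference was 0.12 (SE 0.24, 95% interval -0.42 to 0.66, limma adjusted p = 0.737). Its sign turned without WT1 and, at -0.0021, with equal sums of FPKM. Lama5 (ENSMUSG00000015647, chromosome 2, 180176373 to 180225859, minus strand), the most widely used alpha chain of adult epithelia, stood at 3.14, 2.82, 2.67 and 2.51 FPKM in WT and at 2.53, 2.66 and 2.99 FPKM in KO-labelled libraries. These ranges lay almost on top of each other, and the log2 difference was -0.02 (SE 0.11, 95% interval -0.28 to 0.23, limma adjusted p = 0.899). The sign for Lama5 turned under median-of-ratios and upper-quartile scaling, after length centring and without WT1 or KO1. That interval leaves room for changes of up to about 0.28 on the log2 scale, so it does not show equal levels. Lama2, the alpha chain of muscle and nerve and not among the 10, stood at 3.10 ± 0.696 FPKM in WT and 3.33 ± 0.533 FPKM with the KO label (log2 difference 0.09, or -0.03 with equal sums of FPKM, limma adjusted p = 0.696).

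The beta and gamma chains, with which alpha1 is assembled, were not called. Lamb1 (ENSMUSG00000002900, chromosome 12, 31265234 to 31329644, plus strand), the beta chain of laminin-111, stood at 37.3, 35.9, 37.1 and 31.5 FPKM in WT and at 36.6, 36.6 and 46.5 FPKM in KO-labelled libraries. KO3 alone lay above the WT range. The log2 difference was 0.16 (SE 0.11, 95% interval -0.10 to 0.42, limma adjusted p = 0.314), and with centring by transcript length it became 0.37 and was called higher (adjusted p = 0.0292). With equal sums of FPKM it was 0.01, without KO3 0.05 and without WT4 0.11.

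Lamb2 (ENSMUSG00000052911, chromosome 9, 108479736 to 108490530, plus strand), the beta chain of laminins in kidney glomeruli and neuromuscular junctions, pointed the other way without being called. Its values were 26.2, 33.6, 29.1 and 29.7 FPKM in WT and 18.3, 27.4 and 26.3 FPKM in KO-labelled libraries. KO1 lay well below the rest, KO2 within the WT range and KO3 just inside its lower end. The log2 difference was -0.31 (SE 0.15, 95% interval -0.64 to 0.02, limma adjusted p = 0.15). Without KO1 it shrank to -0.13, and after length centring to -0.10. Lamc1 (ENSMUSG00000026478, chromosome 1, 153218922 to 153332786, minus strand), the gamma1 chain, stood at 18.95, 25.97, 22.3 and 19.9 FPKM in WT and at 14.9, 25.4 and 19.2 FPKM in KO-labelled libraries. KO2 came close to the highest WT library and KO1 was the lowest of all 7, and the log2 difference was -0.15 (SE 0.17, 95% interval -0.54 to 0.24, limma adjusted p = 0.546). The sign for Lamc1 turned without KO1, at 0.03, and after length centring, at 0.12, while without KO2 the difference was -0.33.

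Neither nidogen was called. Nid1 (ENSMUSG00000005397, chromosome 13, 13437551 to 13512269, plus strand) stood at 5.48, 9.92, 6.41 and 4.93 FPKM in WT and at 7.80, 6.80 and 7.96 FPKM in KO-labelled libraries, which all lay inside the WT range (log2 difference 0.19, SE 0.19, limma adjusted p = 0.493). Leaving out 1 library moved the difference of Nid1 to between 0.08 (without WT4) and 0.37 (without WT2). Nid2 (ENSMUSG00000021806, chromosome 14, 19751265 to 19811787, plus strand) stood at 3.65, 3.91, 3.43 and 2.50 FPKM in WT and at 2.39, 3.54 and 2.81 FPKM in KO-labelled libraries (log2 difference -0.16, SE 0.15, limma adjusted p = 0.459). Its difference lay between -0.27 (without KO2) and -0.06 (without KO1), and at 0.0098 after length centring. The Nid2 locus overlaps that of 2700060E02Rik on the opposite strand, which stood at 33.1 FPKM in WT and 36.5 FPKM in KO-labelled libraries. The library kit named in the labels does not mark strand, so fragments from a shared stretch cannot be told apart, and Nid2 is uncertain.

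Of the proteoglycans, Hspg2 (ENSMUSG00000028763, chromosome 4, 137468769 to 137570630, plus strand) stood at 18.9, 19.7, 17.9 and 16.7 FPKM in WT and at 11.97, 16.2 and 16.04 FPKM in KO-labelled libraries. All KO-labelled values lay below all WT values, as for 24.8% of all tested genes. KO2 and KO3, however, lay less than 1 FPKM under the lowest WT library. The log2 difference of -0.30 (SE 0.12, 95% interval -0.58 to -0.03) did not pass after adjustment (limma adjusted p = 0.0963). It passed only with an equal sum of FPKM (-0.44, adjusted p = 0.0405), where the median of all genes was also shifted down. Without KO1 the Hspg2 difference was -0.17, and after length centring -0.04. Agrn (ENSMUSG00000041936, chromosome 4, 156165290 to 156197488, minus strand), known for clustering acetylcholine receptors at the neuromuscular junction, stood at 12.4, 15.2, 12.6 and 11.6 FPKM in WT and at 8.06, 11.5 and 13.3 FPKM in KO-labelled libraries. KO1 was the lowest and KO3 lay within the WT range (log2 difference -0.24, SE 0.16, limma adjusted p = 0.281). Without KO1 the Agrn difference was -0.06, and after length centring 0.02.

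**Figure D2:**
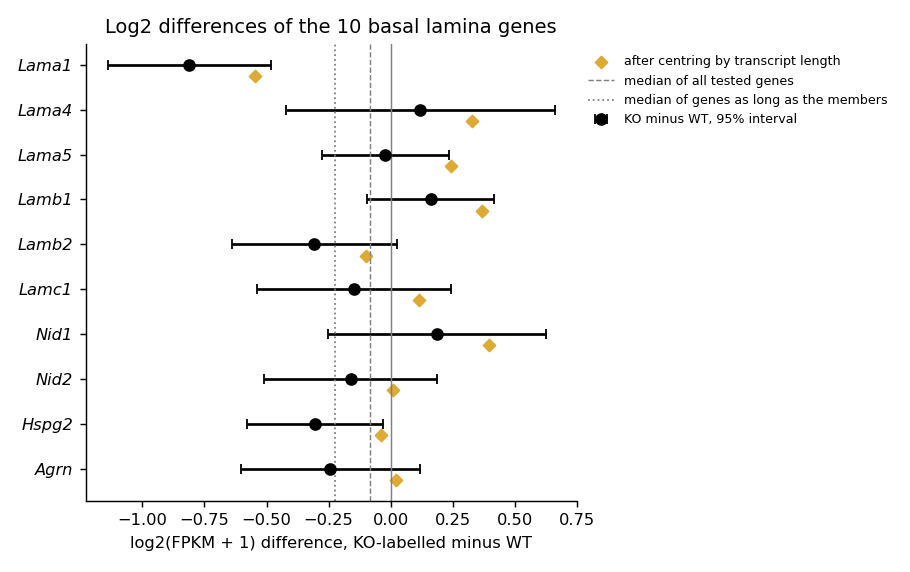
Log2(FPKM + 1) difference, KO-labelled minus WT, with 95% intervals (black), and the same difference after centring by transcript length (diamonds); the dashed and dotted lines mark the medians of all tested genes (-0.08) and of genes as long as the 10 (-0.22). The interval of Lama1 ends at -0.48, below both medians, while those of the other 9 genes reach or cross the median of all genes.

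By level, the order in WT was Lamb1, Lamb2, Lama1, Lamc1, Hspg2, Agrn, Nid1, Lama4, Nid2 and Lama5, from 35.4 down to 2.78 FPKM on average. Of the 9 neighbouring pairs in this order, the ranges over libraries stood apart for Hspg2 above Agrn and Agrn above Nid1, and overlapped for the other 7. In KO-labelled libraries Lamc1 stood above Lama1 in each of the 3 libraries and the rest of the order was the same. WT2 held the highest value for 8 of the 10 genes and KO1 the lowest for 6, namely Lama1, Lamb2, Lamc1, Nid2, Hspg2 and Agrn. KO1 lay below the whole WT range for those 6 genes, KO2 for 3 and KO3 for 2. Such counts per library were not made over all tested genes, so they cannot be read as particular to these 10.

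Within a library, ratios between chains do not depend on the scaling of that library. Lama1 made up 76.2, 69.8, 73.3 and 75.7% of the summed FPKM of Lama1, Lama2, Lama4 and Lama5 in WT1 to WT4 and 53.4, 62.9 and 62.3% in KO1 to KO3. Lama3 was not included. Lama1 was the leading one of these alpha chains in every library, but its share was lower in each KO-labelled library than in any WT library. The shares of the other alpha chains included were higher in each, at 8.18% and 13.2% on average for Lama2, 10.6% and 16.6% for Lama4 and 7.50% and 10.6% for Lama5. Shares of 1 sum move together by construction.

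The ratio of Lama1 to Lamb1 was 0.698, 0.848, 0.757 and 0.820 in WT and 0.318, 0.460 and 0.389 in KO-labelled libraries. Lama1 stood at 1.37, 1.17, 1.26 and 1.30 times Lamc1 in WT and at 0.778, 0.664 and 0.939 times Lamc1 in KO-labelled libraries. In FPKM, the Lama1 transcript thus stood above that of Lamc1 in WT and below it in KO-labelled libraries, and protein was not measured. Neither ratio overlapped between groups, nor did that of Lama1 to Hspg2. By contrast, the ratios of Lamb1 to Lamb2, Lamb1 to Lamc1, Lamb2 to Lamc1, Hspg2 to Lamc1, Agrn to Hspg2 and Nid1 to Nid2 overlapped. Summed over Lama1, Lama2, Lama4 and Lama5, alpha transcripts stood at 37.5 ± 4.51 FPKM in WT and 25.9 ± 3.69 FPKM in KO-labelled libraries without overlap. Beta transcripts, summed over Lamb1, Lamb2 and Lamb3, stood at 65.1 ± 3.60 and 63.9 ± 8.91 FPKM with overlap. Lama1 made up most of the alpha sum in every library, so that sum largely restates its level and does not describe the alpha chains as a class. These ratios and sums were chosen with the level of Lama1 known and are given without a test.

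**Figure D3:**
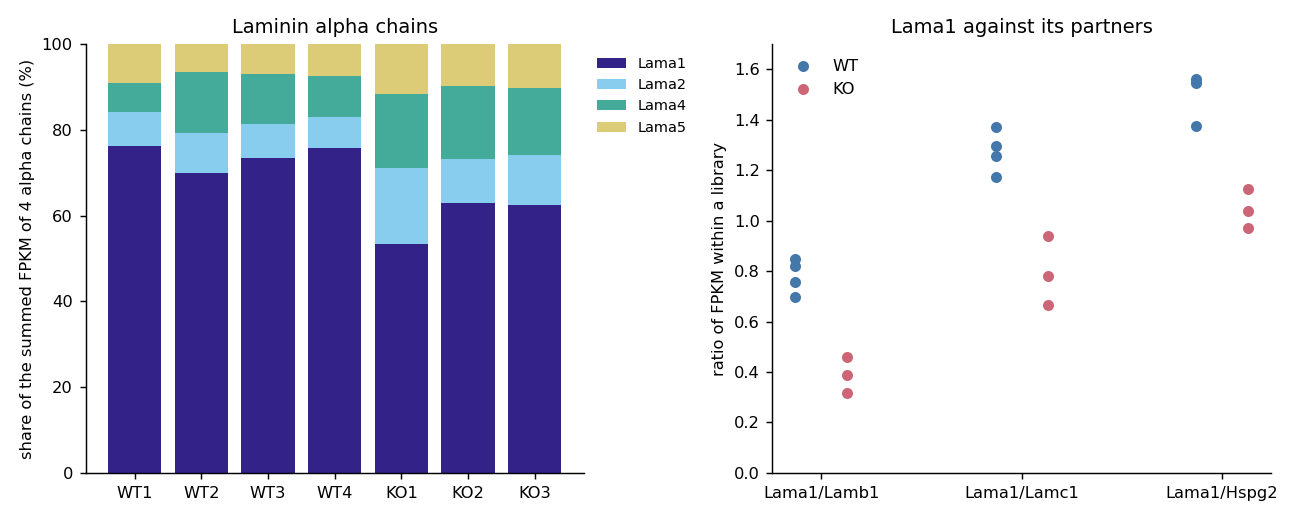
Left, share of each laminin alpha chain in the summed FPKM of 4 alpha chains (%, stacked from 0) for each library; right, the ratio of Lama1 to Lamb1, Lamc1 and Hspg2 within each library (WT blue, KO-labelled red). Lama1 held 69.8 to 76.2% in WT and 53.4 to 62.9% in KO-labelled libraries, and none of the ratios on the right overlapped between groups.

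All 10 genes have long transcripts, from 4876 bp for Nid2 to 14187 bp for Hspg2, and long genes were lower in general in KO-labelled libraries. Among 10 bins of transcript length, the median log2 difference went from 0.09 in the shortest bin to -0.26 in the longest, which began at 6602 bp and in which 29.6% of genes were lower. Lama1, at 9526 bp, differed from the median of its bin by -0.55. Hspg2 and Lamb2 differed from theirs by -0.04 and -0.10, and Agrn by 0.02, Nid2 by 0.01 and Lamc1 by 0.11. Lamb1, Nid1, Lama4 and Lama5 lay above, at 0.37, 0.39, 0.32 and 0.24. The part of transcript length in these differences was not tested beyond this.

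**Figure D4:**
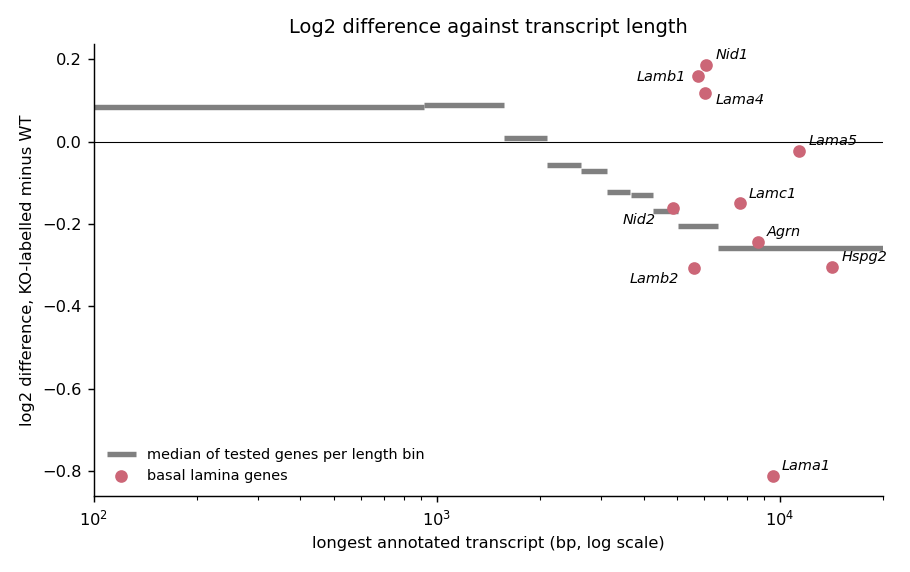
Log2 difference, KO-labelled minus WT, against the longest annotated transcript in bp (log axis) for the 10 genes (red) and the median of tested genes in 10 bins of length (grey bars spanning each bin, ends outside the axis not shown). Lama1 at -0.81 lies far below its bin median of -0.26, and Hspg2 and Agrn lie near it.

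The tested genes whose values followed Lama1 most closely were Creb3l2, Emc1, Atrnl1, Pkd1 and Plekhh1. Likeness was the root mean square difference of log2(FPKM + 1) minus the WT mean over the 7 libraries, which was 0.04 for Creb3l2 and 0.06 for Plekhh1. Because values were centred on the WT mean, this measure largely repeats the log2 differences. None of the other 9 basal lamina genes, which were not called, was near. Lamb2 came closest at rank 2392 with 0.34, and Nid1 was farthest at rank 10368 with 0.71.

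Type IV collagen, the other network of the basal lamina, was mixed. Col4a1 and Col4a2, which form its ubiquitous molecule, stood at 27.8 ± 9.19 and 16.5 ± 5.53 FPKM in WT and at 39.5 ± 2.54 and 23.5 ± 2.94 FPKM in KO-labelled libraries. Neither was called (log2 differences 0.55 and 0.54, limma adjusted p = 0.105 and 0.111), but both were called higher without WT2 and after length centring. Without WT4, each difference shrank to 0.34. Col4a5, a chain of the more restricted molecules, fell from 12.9 ± 1.13 to 8.06 ± 1.98 FPKM (log2 difference -0.64, SE 0.15, limma adjusted p = 0.0195), and the call was lost without a filter on low values and without WT3. Its neighbour on the X chromosome, Col4a6, stood at 3.71 ± 0.706 and 2.61 ± 0.515 FPKM (limma adjusted p = 0.0971) and was called with an equal sum of FPKM. Col4a4 stood at 1.59 and 1.17 FPKM and Col4a3 at 0.857 and 0.565 FPKM, the latter too low to be tested. Of other laminin chains, Lamc3 stood at 2.94 and 2.21 FPKM (limma adjusted p = 0.212) and Lamb3 at 0.0105 and 0.0155 FPKM, the latter too low to be tested.

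In a list of 26 other basal lamina components, 19 were tested, 3 rose, 3 fell and 13 were not called, with a median log2 difference of 0.06. The counts of this and the following lists stand beside 16.7% lower and 7.91% higher among all tested genes. Tinagl1, a matrix protein that binds laminin, rose from 6.65 ± 2.19 to 17.5 ± 1.37 FPKM (log2 difference 1.31, SE 0.19, limma adjusted p = 0.00464). Sparc, which binds type IV collagen, rose from 113 ± 29.8 to 227 ± 20.8 FPKM (log2 difference 1.03, limma adjusted p = 0.0100). Both kept their call under all 15 alternatives. Smoc2, a relative of Sparc, rose from 30.1 ± 0.989 to 39.8 ± 1.95 FPKM (log2 difference 0.39, limma adjusted p = 0.0125), a call lost with an equal sum of FPKM and without WT3. Pxdn, the peroxidase that crosslinks type IV collagen, fell from 34.7 ± 6.39 to 18.3 ± 4.94 FPKM (log2 difference -0.91, limma adjusted p = 0.0147), and lost its call only when low genes were not filtered out. The remaining lower call was Col18a1, named after its values were seen, at 13.03 ± 1.80 and 9.62 ± 1.01 FPKM (limma adjusted p = 0.0492). Over the alternatives, 2 to 5 of the list were higher and 0 to 5 lower, with 5 higher without WT2 and 1 lower without WT3.

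Among 14 laminin receptors, 13 were tested, 1 rose and 1 fell, with a median log2 difference of -0.08. Dag1, which encodes dystroglycan, a receptor for the globular domains of laminin alpha chains, perlecan and agrin, stood at 117, 123, 109 and 96.9 FPKM in WT and at 42.8, 75.8 and 61.5 FPKM in KO-labelled libraries. It fell from 112 ± 11.4 to 60.01 ± 16.5 FPKM (log2 difference -0.92, SE 0.18, limma adjusted p = 0.0104) and was called under all 15 alternatives. Bcam, a receptor for the laminin alpha5 chain, rose from 9.59 ± 2.61 to 17.1 ± 2.46 FPKM (log2 difference 0.80, limma adjusted p = 0.0233), a call lost in 4 alternatives, among them without WT3, without KO1 and without KO3. The other 11 tested receptors, integrin chains, syndecans and Cd151, were not called, and 3 receptors in all were lower without KO2 or with equal sums of FPKM.

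Enzymes that build or trim heparan sulfate, the side chain of perlecan and agrin, were lower in 6 of 19 and higher in 1, with a median log2 difference of -0.32. Among all tested genes 16.7% were lower and 7.91% higher, and among the long genes 27.8% and 3.21%. Sulf2, which removes sulfate groups from finished chains, fell from 205 ± 17.7 to 129 ± 24.5 FPKM (log2 difference -0.68, limma adjusted p = 0.0121), and Ndst1, which starts sulfation, from 9.38 ± 0.926 to 5.73 ± 0.949 FPKM (log2 difference -0.63, limma adjusted p = 0.0106). Both calls held under all 15 alternatives. Extl2, a glycosyltransferase, fell from 4.90 ± 1.20 to 2.72 ± 0.303 FPKM (log2 difference -0.65, limma adjusted p = 0.0198), a call lost without KO1 and without a filter on low values. Ndst2 fell from 8.42 ± 0.945 to 5.79 ± 0.758 FPKM (log2 difference -0.47, limma adjusted p = 0.0224), a call lost in 6 alternatives, among them without WT2, WT3, KO1 or KO2. Hpse, the heparanase that cuts these chains, was the 1 higher call, at 0.941 and 1.71 FPKM. It is named after its values were seen, and it passed the filter on low values only through its KO-labelled level. The number of lower calls dropped from 6 to 3 without WT2 or WT3 and to 2 without KO1 or with no filter.

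Among 14 proteases that can cut basal lamina proteins, 13 were tested, 5 rose and 2 fell, with a median log2 difference of 0.29. Adamts4, a proteoglycan-cutting metalloprotease, rose from 4.59 ± 0.446 to 13.99 ± 4.08 FPKM (log2 difference 1.39, SE 0.17, limma adjusted p = 0.00359). The plasminogen activators Plat and Plau rose from 37.9 ± 6.03 to 72.1 ± 10.3 FPKM (log2 difference 0.92, limma adjusted p = 0.00668) and from 137 ± 37.6 to 255 ± 40.5 FPKM (log2 difference 0.92, limma adjusted p = 0.0155). Adamts4 and Plat were called under all 15 alternatives, and Plau lost its call without a filter on low values. Mmp19 rose from 0.673 ± 0.131 to 1.82 ± 0.816 FPKM (log2 difference 0.72, limma adjusted p = 0.0277), a call lost without WT3, without WT4 and in 2 other alternatives. Mmp19 passed the filter on low values only through its KO-labelled level, and without KO1 it was too low to be tested. The fifth rise was the cathepsin Ctsb and the falls were Htra1 and Ctsl, named after their values were seen. Higher calls numbered 3 without WT3, WT4 or KO1, and the lower calls dropped to 0 in 2 other scalings, without a filter and without WT1, WT2, WT3, KO1 or KO3.

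Markers of the labelled cell type were found in every library, with the 12 granulosa markers summing to 4395 to 5868 FPKM in WT and 2881 to 4087 FPKM in KO-labelled libraries. Most of these sums was Inha, at 2812 to 3742 FPKM in WT and 2036 to 2643 FPKM in KO-labelled libraries. Of the 12 markers, 6 fell and none rose, with a median log2 difference of -0.69. Esr2, the estrogen receptor of granulosa cells, fell from 56.9 ± 4.38 to 30.2 ± 4.07 FPKM (limma adjusted p = 0.00367) and Fshr, the FSH receptor, from 28.2 ± 5.56 to 13.6 ± 3.11 FPKM (limma adjusted p = 0.00854). Kctd14 fell from 47.1 ± 3.45 to 18.9 ± 5.47 FPKM (limma adjusted p = 0.00402) and Cyp19a1, which encodes aromatase, from 141 ± 71.6 to 33.4 ± 9.46 FPKM (limma adjusted p = 0.0113). Without KO1 or WT3 the number of lower calls was 4, with no filter 3 and with equal sums of FPKM 10.

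Markers of other ovarian cells, several of which make basal lamina themselves, were mostly higher in the same KO-labelled libraries. Of 18 endothelial markers 11 were tested and all 11 rose, summing over the 18 to 13.5 to 28.8 FPKM in WT and 54.1 to 78.1 FPKM in KO-labelled libraries. Pecam1 rose from 2.30 ± 0.299 to 6.75 ± 0.811 FPKM (limma adjusted p = 0.00234), and the other leading calls were Eng, at 2.00 and 10.2 FPKM, Emcn, at 0.786 and 5.85 FPKM, and Esam, at 1.79 and 5.96 FPKM. Of the 11, 5 (Cldn5, Emcn, Erg, Plvap and Tie1) passed the filter on low values only through the KO-labelled libraries and so had to be higher there, which leaves 6 with both group means of at least 1 FPKM. Of 12 smooth muscle and pericyte markers 9 were tested and 7 rose, with sums of 70.5 to 131 and 159 to 444 FPKM, and 2 of the 9, Des and Rgs5, passed the filter only through the KO-labelled libraries. Tagln, an actin-binding protein of contractile cells, rose from 24.2 ± 5.67 to 98.1 ± 55.2 FPKM (limma adjusted p = 0.00885). Kcnj8 was at 1.29 and 5.75 FPKM, Rgs5 at 0.818 and 3.58 FPKM and Mcam at 4.73 and 8.05 FPKM. The markers too low to be tested, named after their values were seen, did not rise in this way. Cspg4 was lower without overlap, at 0.899 FPKM in WT and 0.498 FPKM in KO-labelled libraries, and Notch3 and Abcc9 overlapped.

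Macrophage markers rose in 11 of 12 tested of 15 listed, with sums of 27.1 to 49.0 and 75.8 to 162 FPKM, and surface epithelium markers in 10 of 12, with sums of 34.5 to 46.3 and 71.5 to 144 FPKM. Of the tested markers, Aif1, Mrc1 and Krt7 passed the filter only through the KO-labelled libraries. Examples are the complement gene C1qa, at 2.09 ± 0.516 and 15.4 ± 5.68 FPKM (limma adjusted p = 0.00253), and the keratin Krt18, at 5.67 ± 0.588 and 23.8 ± 9.61 FPKM (limma adjusted p = 0.00416). Ctss, C1qc and Laptm5 were at 2.04, 2.56 and 1.20 FPKM in WT and at 11.8, 13.3 and 4.25 FPKM with the KO label, and Epcam, Upk1b and Krt19 at 1.40, 1.97 and 3.73 FPKM against 4.18, 6.98 and 13.2 FPKM. Theca and stroma markers were mixed, with 4 of 13 higher, 1 lower and overlapping sums of 80.4 to 217 and 183 to 334 FPKM. The lower one was Ptch1, the hedgehog receptor, at 11.7 ± 1.75 and 4.75 ± 0.729 FPKM (limma adjusted p = 0.00330), and the higher ones included Insl3, at 1.002 and 8.75 FPKM, Dcn, at 10.51 and 30.2 FPKM, and the androgen-making Cyp17a1, at 40.8 and 124 FPKM. Higher theca and stroma calls numbered 1 without KO1 and 2 without KO3, and the call of Dcn was lost without KO1 and without a filter on low values. No listed marker was at 0 in every library.

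These marker levels moved with the groups, and their part in the values of Lama1 and of the other basal lamina genes was not tested. In such bulk RNA, fewer granulosa cells and less of a transcript per cell cannot be told apart.

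**Figure D5:**
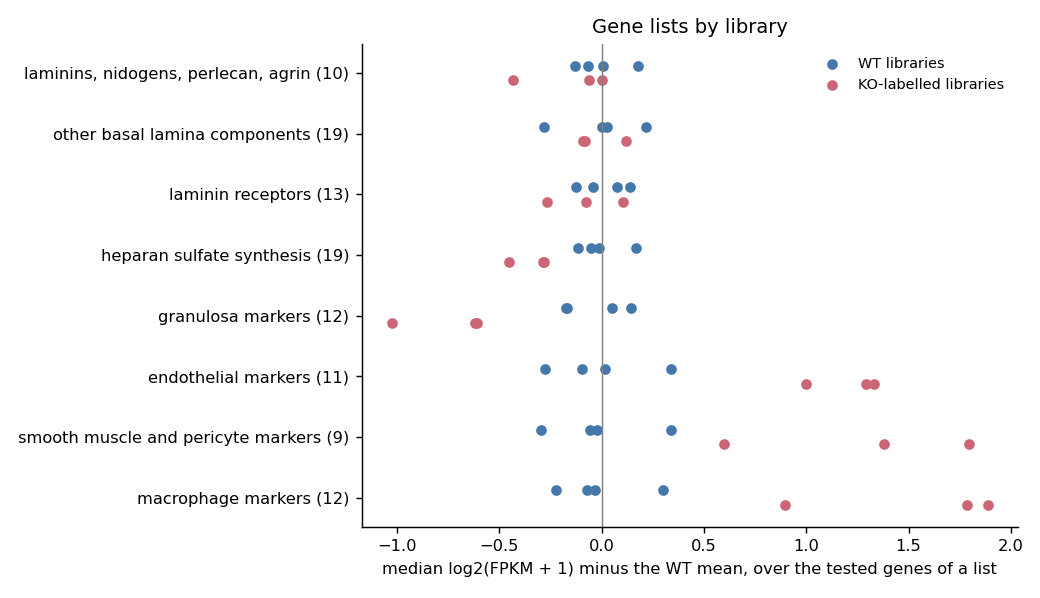
Median over the tested genes of each list of log2(FPKM + 1) minus the WT mean, for each WT library (blue) and each KO-labelled library (red), with the number of tested genes in brackets. The KO-labelled libraries overlap the WT libraries for the 10 genes described, the other basal lamina components and the laminin receptors, lie below them for heparan sulfate synthesis and granulosa markers, and lie above them for endothelial, smooth muscle and macrophage markers. Of the tested markers in these last lists, 5 of 11, 2 of 9 and 2 of 12 passed the filter on low values only through the KO-labelled libraries. Those genes had to be higher there, so these medians partly follow from the filter.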

How the data were processed

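The authors deposited 1 table of expression values for the 7 libraries. Neither labels nor headers give its unit, which was taken to be FPKM because the values are fractional and their sums vary between libraries. Per the labels' protocols, the libraries were poly(A)-selected, with fragments near 200 bp and paired reads of 150 bp. The submitters' processing notes list the build mm10 and the tools HISAT2, HTSeq 0.12.4, Trimmomatic, FastQC, edgeR and DESeq2 without their roles, and the step that made the FPKM is not given in the sources used here. At best 24.6% of low values lay within 2% of whole multiples of 1 fragment, so fragments were not recovered, the depth is unknown and no count test was run.

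KO-labelled minus WT was fitted on log2(FPKM + 1) with limma 3.58.1 (R 4.3.3), using a mean-variance trend, for genes averaging 1 FPKM or more. P-values were adjusted over all 13850 genes by the Benjamini-Hochberg method and called under 0.05. This scale understates changes of genes near 1 FPKM. The fit was also run on simulated data with 200 changed genes and independent noise. Far more genes were called in the real libraries, so that run does not show how reliable the calls are here. Coordinates and longest transcripts came from GENCODE vM21 on GRCm38, the same assembly as mm10, matched by Ensembl identifier. The members, gene lists and rules were chosen with earlier results of these data known. The rule for named genes took all 10 members, up to 4 called genes of each list by smallest adjusted p, type IV collagen and other laminin chains, Ezh2 and Il1r2, and the 5 genes most like Lama1; 1 gene under this rule is not reported here. Alternatives were a pseudocount of 0.1, no filter, a minimum mean of 5 FPKM, 3 other scalings, centring within 10 bins of transcript length, a replicate block, and leaving out each library.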

Additional observations from a re-analysis of the deposited data

Results flagged for a closer look

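Of 32 sets of 4 WT values examined for a library far from the others (Dixon's gap over range above 0.829, which chance passes in about 1 of 20 sets), 2 stood out. Lamb3 made up 0.0603% of the beta chain FPKM in WT2 and was listed at 0 in the other WT libraries. The ratio of Lama1 to Hspg2 was 1.37 in WT1, below the 1.55 to 1.56 of the other WT libraries and above the 0.972 to 1.13 of the KO-labelled libraries.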

How the results depend on the processing

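Lama1 was called lower under all 15 alternatives run, and its log2 difference without each library lay between -0.93 and -0.63. The number of called genes, 3410 as reported, was 1865 without a filter and 1293 (without KO1) to 3369 (without WT1) with a library left out. It was 2022 without WT2 and 1552 without WT3. Members called higher numbered 1 with length-bin centring (Lamb1) and members called lower 2 with an equal sum of FPKM (Lama1 and Hspg2).

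Signs turned for genes that were not called. Under length centring Agrn stood at 0.0214, Col4a4 at 0.0246, Lama5 at 0.242, Lamc1 at 0.115, Nid2 at 0.0098 and Il1r2 at -0.0108. With equal sums, Il1r2 stood at -0.0112, Lama2 at -0.0278 and Lama4 at -0.0021. Lama5 stood at 0.0416 and 0.0551 under median-of-ratios and upper-quartile scaling. With a library left out, Lama4 ranged from -0.0732 to 0.315, Lama5 from -0.0729 to 0.0223, Lamc1 from -0.334 to 0.0295 and Il1r2 from -0.0318 to 0.232.

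With the replicate block, 2671 genes were called and Lama1 stood at -0.84 (limma adjusted p = 0.0161). Same-numbered libraries deviated together with correlations of 0.193, -0.11 and 0.0708. KO1 correlated best with WT1, and KO2 and KO3 with WT libraries of another number. Whether same-numbered libraries were paired is not stated, and such correlations cannot decide it. Without fragment numbers, depth sets no stated limit on the low members, Lama5 and Nid2.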
